A study of Mus musculus with 10 samples.

Results

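Periportal hepatocytes are the liver cells nearest the portal vein and hepatic artery, where blood enters the lobule. Cyp2f2, Hal, Sds, Hsd17b13, Etnppl and Cdh1, genes known for their expression in these cells, were taken by symbol from the 55291 genes of the deposited count table. All 6 were found, and all 6 passed the filter on low counts that left 17015 genes. The right liver lobes of 10 female mice aged 16 to 20 weeks were profiled by bulk RNA-seq, which measures the mRNA of all cells of the tissue together. All mice carried a Cas9 gene held silent by a lox-stop-lox cassette. All received an AAV8 virus that brings Cre recombinase under the TBG promoter, active in hepatocytes, so that Cas9 acts there and other liver cells keep Bap1. The guide was a non-targeting control (NTC) or one against Bap1 (sgBap1), which encodes a deubiquitinase of chromatin. On day 10 the mice were given carbon tetrachloride (CCl4) in olive oil, or olive oil alone as vehicle (Veh), and livers were taken 48 h later. The NTC-Veh and sgBap1-Veh groups held 2 mice each, and both CCl4-treated groups (NTC-CCl4, sgBap1-CCl4) held 3 each.

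Hepatocytes divide their tasks along the axis from portal to central vein, which is called zonation. Periportal cells receive the most oxygen and amino acids and carry out gluconeogenesis, urea synthesis and amino acid breakdown. Pericentral cells, under Wnt signals from the central vein, express glutamine synthetase and many cytochromes P450. Cyp2e1, one of these, turns CCl4 into a toxic radical, so that CCl4 kills hepatocytes around the central vein and largely spares the periportal ones. Cyp2f2 encodes a cytochrome P450 that oxidises naphthalene and is widely used to mark the periportal zone. Hal, Sds and Etnppl encode enzymes that each release ammonia, from histidine, from serine and from phosphoethanolamine. Hsd17b13 encodes a protein of the lipid droplet surface that acts on retinol, and Cdh1 encodes E-cadherin, which joins neighbouring epithelial cells.

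The 6 genes lie on 5 chromosomes of the mouse genome (GRCm38, GENCODE vM21). Cyp2f2 spans chr7:27119909-27133660 on the + strand, in a cluster of Cyp2 genes. Hal spans chr10:93488768-93519304 (+) and Etnppl chr3:130617448-130637521 (+). Sds at chr5:120476526-120483932 (+) and Hsd17b13 at chr5:103955440-103977410 (-) share a chromosome, and Cdh1 spans chr8:106603351-106670246 (+). Cyp2f2 overlaps Gm15883 on the other strand, and Sds overlaps Gm15690 and Plbd2 there. Gm15883 and Gm15690 had group means of at most 1.08 and 0.0685 CPM, and Plbd2 had 62.8 to 83.3 CPM. At most 0.51% of the stretches of 50 bases in the transcripts of each of the 6 genes occur in another gene.

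The promoters of Hal and Cyp2f2, genes that fell with CCl4, and of Hsd17b13, the gene that moved least, are shown to set their sequences beside the values that follow. RefSeq promoters on GRCm38.p6 hold 250 bases before and 50 after a transcript start, and 4 of the 6 genes had one. They are written in the direction of the gene, and capitals mark the matches of 6 short motifs searched on both strands. These were CTTTGA (the core bound by TCF/LEF factors of the Wnt pathway), AAAGTCC (bound by HNF4), GTTAAT (bound by HNF1), TTNNGCAA (C/EBP), TGACG (the core of a cAMP response element) and TATAAA (the TATA box). None of the motifs overlapped another where it was found. The Cyp2f2 promoter, chr7:27119705-27120004, holds none of them.
Cyp2f2: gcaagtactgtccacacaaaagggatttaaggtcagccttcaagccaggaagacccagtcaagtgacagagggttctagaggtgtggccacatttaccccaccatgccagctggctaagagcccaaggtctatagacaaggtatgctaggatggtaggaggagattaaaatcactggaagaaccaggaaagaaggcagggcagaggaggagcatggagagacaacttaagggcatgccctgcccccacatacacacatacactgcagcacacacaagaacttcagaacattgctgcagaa
The Hal promoter, chr10:93488518-93488817, holds CTTTGA starting 199 bases before the start, a C/EBP match at 150 bases and a TATA match at 28 bases, the last pair on the other strand.
Hal: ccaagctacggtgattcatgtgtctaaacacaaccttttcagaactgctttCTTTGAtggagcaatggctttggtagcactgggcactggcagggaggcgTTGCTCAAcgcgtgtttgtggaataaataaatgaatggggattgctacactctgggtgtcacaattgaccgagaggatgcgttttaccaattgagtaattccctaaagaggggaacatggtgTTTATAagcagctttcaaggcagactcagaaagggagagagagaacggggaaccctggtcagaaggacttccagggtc
The Hsd17b13 promoter, chr5:103977339-103977638, holds CTTTGA at 184 bases and, on the other strand, at 18 bases before the start, and TGACG on the other strand at 33 bases.
Hsd17b13: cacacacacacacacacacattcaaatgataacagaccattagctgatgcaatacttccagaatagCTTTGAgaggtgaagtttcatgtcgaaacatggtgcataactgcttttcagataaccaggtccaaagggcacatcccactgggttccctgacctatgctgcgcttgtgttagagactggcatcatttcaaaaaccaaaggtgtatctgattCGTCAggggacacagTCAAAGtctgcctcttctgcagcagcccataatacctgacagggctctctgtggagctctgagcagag
Etnppl has promoters at 2 starts, of which one holds no match and the other GTTAAT at 6 bases before the start. Among 32851 RefSeq promoters of the same length, 16% hold CTTTGA, 4.21% AAAGTCC, 7.1% GTTAAT, 10.8% TTNNGCAA, 20.8% TGACG and 13.6% TATAAA. These are matches of letters only.

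The estimated counts summed to 3.30e+07 to 5.22e+07 per liver, and expression is given in CPM, the counts scaled to a common library total after TMM normalization. A limit of 3 counts, which covers counting error only, equals 0.0511 to 0.112 CPM. Every value of the 6 genes lay far above it, the lowest being 10.6 CPM. Bap1, the targeted gene, measured 34.8 CPM in both NTC-Veh livers and 29.5 to 31.5 CPM after CCl4, while sgBap1 livers had 17.5 and 19.5 CPM with vehicle and 17.0 to 21.8 CPM after CCl4. Every sgBap1 liver was thus below every NTC liver, though none lacked Bap1 mRNA. The authors reported that editing at the guide site was incomplete in liver tissue. The liver of sgBap1-CCl4 mouse 2 also held mRNA of fat cells, with 36.4 CPM of Adipoq and 34.5 of Plin1, against at most 0.0425 and 0.0188 in the other livers. The summed CPM of 8 general hepatocyte markers was 145300 to 176151 in NTC livers with vehicle and 107247 to 116919 with CCl4. In sgBap1 livers it was 127608 to 134406 with vehicle and 93850 to 120107 with CCl4. In bulk tissue, fewer cells of a type and less mRNA per cell cannot be told apart. The sum of 4 genes of cycling cells (Mki67, Top2a, Ccnb1 and Cdk1) was 5.36 to 11.4 CPM with vehicle and 154 to 294 CPM with CCl4. No source says more than that samples of a group are separate mice, so p-values measure the spread between these mice.

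Per kilobase of exonic sequence, which allows genes to be compared, Cyp2f2 had the highest level in NTC-Veh livers, at 323 ± 0.691 CPM per kb (mean ± SD, n = 2). Sds followed with 148 ± 19.96 CPM per kb and Hsd17b13 with 135 ± 4.90 CPM per kb. Hal measured 70.9 ± 0.0632, Etnppl 10.2 ± 2.07 and Cdh1 7.76 ± 2.32 CPM per kb. The order was the same per kilobase of the longest coding transcript. Sds (162 and 134 CPM per kb) and Hsd17b13 (132 and 138 CPM per kb) overlapped between the 2 NTC-Veh mice. So did Etnppl (8.75 and 11.7 CPM per kb) and Cdh1 (6.12 and 9.40 CPM per kb). The other 4 genes stood well above Etnppl and Cdh1.

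**Figure D1:**
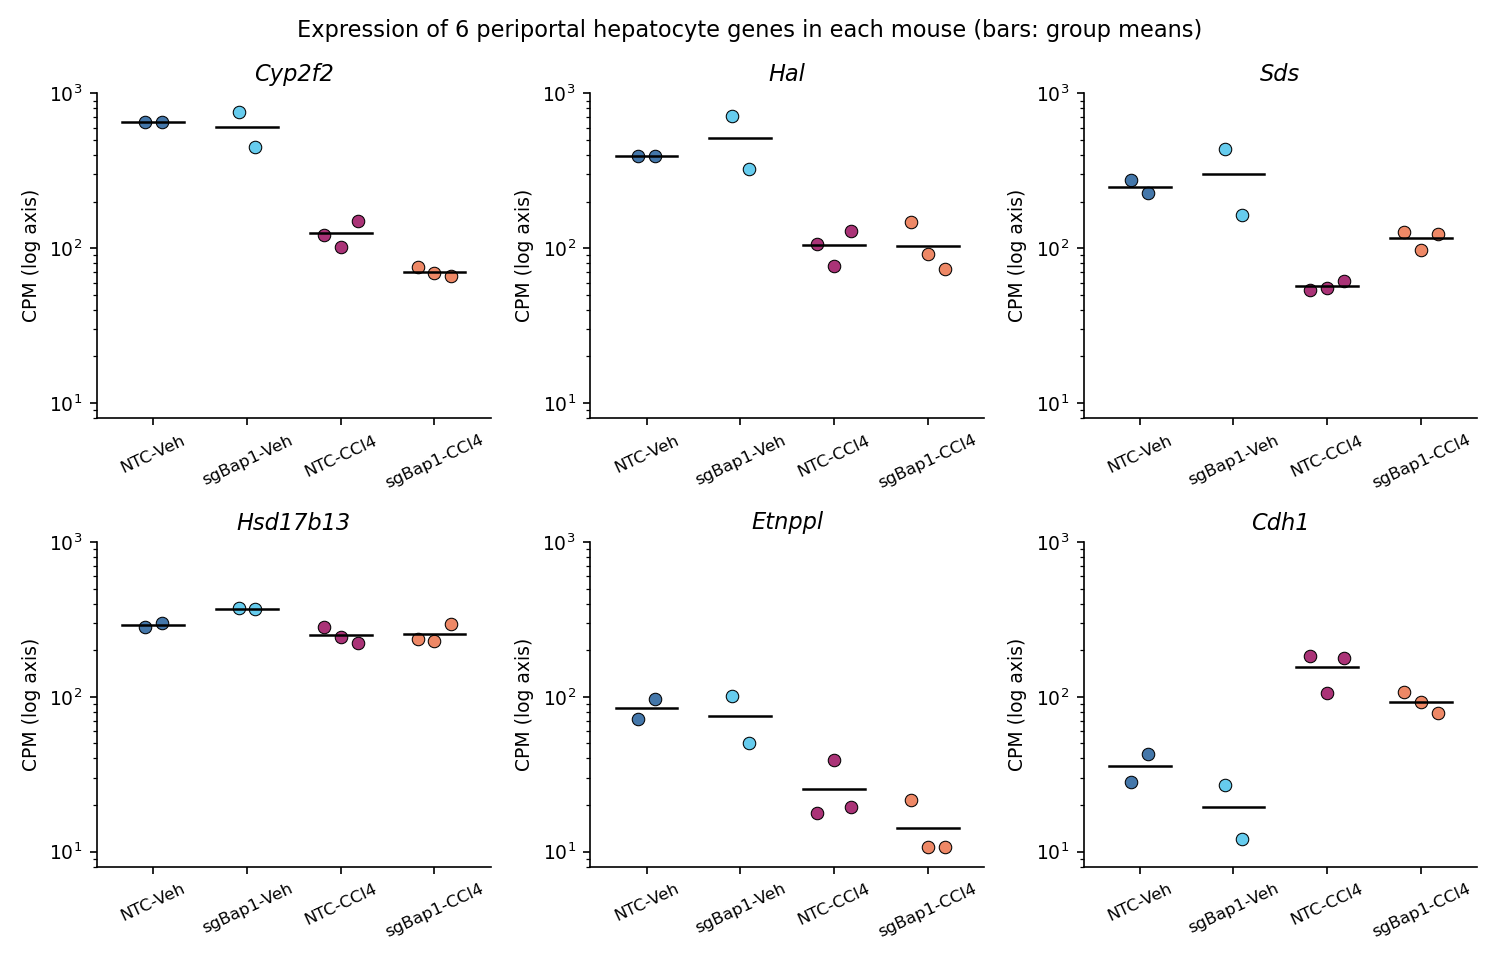
Expression of the 6 genes in CPM of the TMM-normalized library on a log axis, with 1 point per mouse, in the order of the mouse numbers, and a bar at each group mean. Cyp2f2, Hal, Sds and Etnppl sit lower in all 6 CCl4-treated mice than in all 4 vehicle-treated mice, Cdh1 sits higher, and Hsd17b13 stays between 223 and 374 CPM in every mouse.

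The first comparison asks what CCl4 did to periportal gene expression in livers with intact Bap1. Cyp2f2, Hal, Sds and Etnppl fell to between 0.191 and 0.301 of their NTC-Veh level, Cdh1 rose 4.39-fold, and the change of Hsd17b13 did not pass the test. In NTC livers, 5 of the 6 genes were called (1 higher, 4 lower) with edgeR's quasi-likelihood test at an adjusted p under 0.05, where 53.9% of the 17015 tested genes were called (27.4% higher, 26.6% lower). The NTC-CCl4 and NTC-Veh mice did not overlap for any of the 6 genes, and for 71.7% of all tested genes. The median log2 fold change of the 6 genes was -1.82, against 0.03 over all tested genes.

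Cyp2f2 measured 654 and 656 CPM in the NTC-Veh mice and 121, 102 and 151 CPM in the NTC-CCl4 mice. The groups lay far apart, with the NTC-Veh mice nearly equal. The log2 fold change was -2.39 (SE 0.21, adjusted p = 1.11e-05). Sds, which turns serine into pyruvate, measured 274 and 226 CPM with vehicle and 53.4, 55.7 and 61.8 CPM with CCl4. All 3 CCl4-treated mice were low and close to each other, with log2 fold change -2.14 ± 0.33 (SE; adjusted p = 0.000697). Hal, the first enzyme of histidine breakdown, measured 394 and 393 CPM with vehicle and 107, 76.9 and 129 CPM with CCl4. It fell in each CCl4-treated mouse, with log2 fold change -1.92 ± 0.38 (SE; adjusted p = 0.00286).

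Etnppl, which breaks down phosphoethanolamine, measured 72.3 and 96.4 CPM in the NTC-Veh mice and 17.9, 38.8 and 19.4 CPM in the NTC-CCl4 mice. NTC-CCl4 mouse 2 stood above the others, and still below both vehicle-treated mice. The log2 fold change was -1.73 (SE 0.47, adjusted p = 0.0155). This call was lost without NTC-Veh mouse 2 (log2 fold change -1.51, adjusted p = 0.084) and without the filter on low counts (adjusted p = 0.052). Hsd17b13 measured 284 and 299 CPM with vehicle and 282, 244 and 223 CPM with CCl4. The highest CCl4-treated mouse almost reached the lower vehicle-treated one, and the log2 fold change of -0.22 (SE 0.13, adjusted p = 0.193) was not called. Cdh1 measured 28.0 and 43.0 CPM with vehicle and 183, 106 and 178 CPM with CCl4. It was the 1 gene of the 6 that rose, at a log2 fold change 2.14 ± 0.39 (SE; adjusted p = 0.00194).

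TMM assumes that most genes do not change. Scaling by library size alone moved the median log2 fold change of all tested genes to 0.50. On that scale Hsd17b13 had a log2 fold change of 0.25 (adjusted p = 0.0969) in place of -0.22, and the other 5 genes kept their direction and their call.

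The second comparison asks the same in livers with the Bap1 guide. All 6 genes were called in sgBap1-CCl4 against sgBap1-Veh livers (1 higher, 5 lower), where 57% of all tested genes were called (29% higher, 28% lower). The groups did not overlap for any of the 6, and for 72.2% of all tested genes. The median log2 fold change of the 6 genes was -1.85, against 0.04 over all tested genes. The same 6 genes took the same directions as in NTC livers, from separate mice of both treatments.

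Cyp2f2 went from 758 and 452 CPM in the sgBap1-Veh mice to 75.4, 69.4 and 66.4 CPM in the sgBap1-CCl4 mice. These were the lowest Cyp2f2 values of the 4 groups, and the log2 fold change was -3.10 (SE 0.21, adjusted p = 2.89e-06). Etnppl went from 101 and 50.04 CPM to 21.5, 10.6 and 10.7 CPM, with log2 fold change -2.41 ± 0.48 (SE; adjusted p = 0.00338). Hal went from 713 and 324 CPM to 147, 92.0 and 73.1 CPM, with log2 fold change -2.32 ± 0.38 (SE; adjusted p = 0.000977). For each of these genes, the lower vehicle-treated mouse still stood well above the highest CCl4-treated one.

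Sds went from 438 and 165 CPM to 127, 97.7 and 123 CPM. The fall was shallower here, and the highest CCl4-treated mouse came nearer to the lower vehicle-treated one. The log2 fold change was -1.38 (SE 0.33, adjusted p = 0.00673). Hsd17b13 went from 374 and 367 CPM to 237, 228 and 293 CPM, log2 fold change -0.55 ± 0.13 (SE; adjusted p = 0.00538). With library size alone it was -0.08 (adjusted p = 0.594), while the median of all genes moved to 0.52. Cdh1 went from 26.8 and 12.0 CPM to 107, 92.1 and 79.1 CPM, log2 fold change 2.25 ± 0.40 (SE; adjusted p = 0.00149).

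The sizes of these changes rested on which of the 2 sgBap1-Veh mice served as the baseline, though all 6 calls held without either one. Without sgBap1-Veh mouse 1 the log2 fold change of Sds was -0.50 (adjusted p = 0.0393), and without mouse 2 it was -1.92 (adjusted p = 5.32e-05). That of Hal was -1.64 without mouse 1 and -2.78 without mouse 2. Etnppl gave -1.80 and -2.82, and Cdh1 gave 2.95 and 1.79. Cyp2f2 gave -2.68 and -3.43, and Hsd17b13 gave -0.53 and -0.56. Without sgBap1-CCl4 mouse 2, the liver with fat cell mRNA, all 6 genes were still called.

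**Figure D2:**
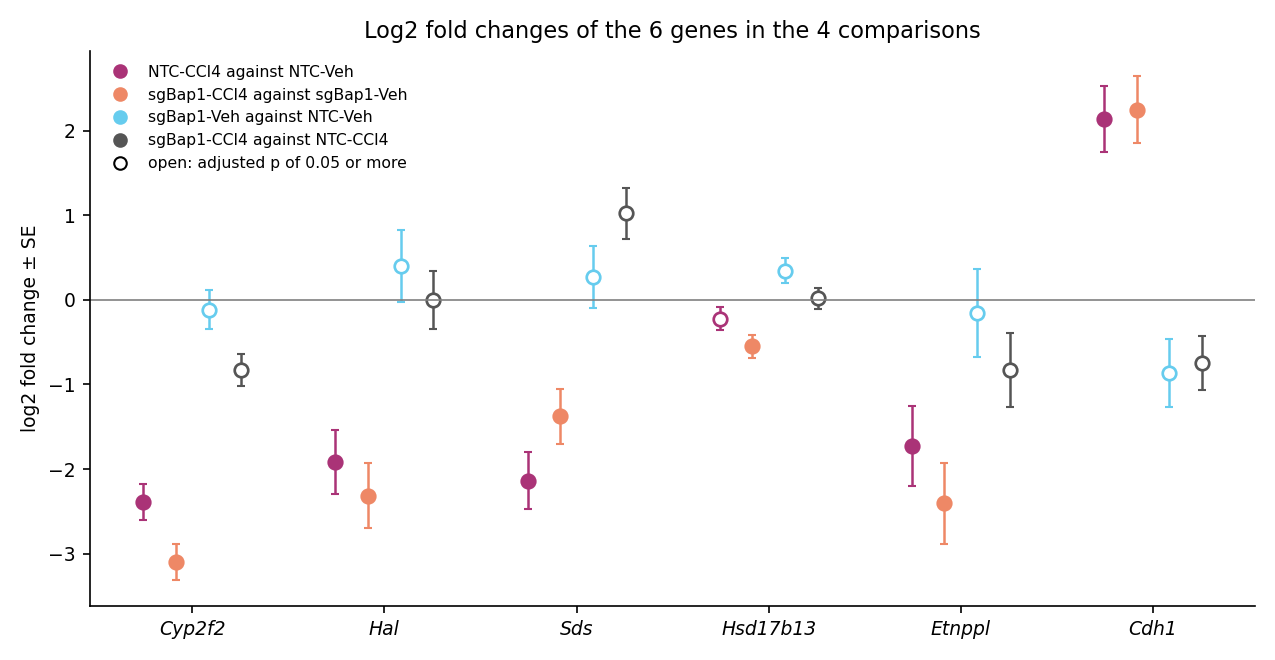
Log2 fold change with its SE (vertical axis) of each of the 6 genes in 4 comparisons, with filled points where the adjusted p of edgeR's quasi-likelihood test is under 0.05. CCl4 lowers Cyp2f2, Hal, Sds and Etnppl and raises Cdh1 in both genotypes, and no point of the 2 comparisons between genotypes is filled.

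The third comparison asks what the Bap1 guide did to these genes without injury. In sgBap1-Veh against NTC-Veh livers, which share the NTC-Veh mice with the first comparison, edgeR's quasi-likelihood test called 0 of the 6 genes, where 0.406% of all tested genes were called. At an unadjusted p under 0.05 it was 1 of 6, where 12.3% of all genes passed, and DESeq2's Wald test called 0 of the 6, where it called 3.79% of its genes. The median log2 fold change of the 6 genes was 0.08, against 0.02 over all tested genes. Hsd17b13 was higher in both sgBap1-Veh mice (374 and 367 CPM) than in both NTC-Veh mice (284 and 299 CPM). Its log2 fold change was 0.35 (SE 0.15, unadjusted p = 0.0411, adjusted p = 0.381). Cdh1 was lower in both (26.8 and 12.0 against 28.0 and 43.0 CPM), with -0.86 (SE 0.41, adjusted p = 0.443). Groups did not overlap for these 2 genes, and for 40.9% of all tested genes. Hal (0.40, SE 0.42), Sds (0.27, SE 0.37), Cyp2f2 (-0.11, SE 0.23) and Etnppl (-0.15, SE 0.52) overlapped between the genotypes.

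The overlap came with a wide gap between the 2 sgBap1-Veh mice. Mouse 1 measured 1.68 times the CPM of mouse 2 for Cyp2f2, 2.20 times for Hal, 2.66 times for Sds, 2.02 times for Etnppl and 2.23 times for Cdh1. For Hsd17b13 the ratio was 1.02. On the log2 scale these gaps were 0.75 to 1.41 for the first 5 genes, against a median size of 0.17 over the 12028 genes that averaged 100 counts or more. They exceeded the gaps of 95.8% to 99.3% of those genes. The NTC-Veh mice differed far less for Cyp2f2 and Hal, by less than 0.01 on the log2 scale, with -0.62 for Cdh1 as the widest gap.

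Of 15 other periportal genes, 11 were higher in sgBap1-Veh mouse 1 than in mouse 2, with a median log2 difference of 0.37. Of 14 pericentral genes it was 6, with a median of -0.10. Among all tested genes, 50.9% were higher in mouse 1, with a median of 0.01. The summed hepatocyte markers were slightly lower in mouse 1 (127608 CPM) than in mouse 2 (134406 CPM), the opposite order to the 6 genes. Mouse 2 also had the smallest library of the 10, at 3.30e+07 counts, and the part of this in the gap was not tested.

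**Figure D3:**
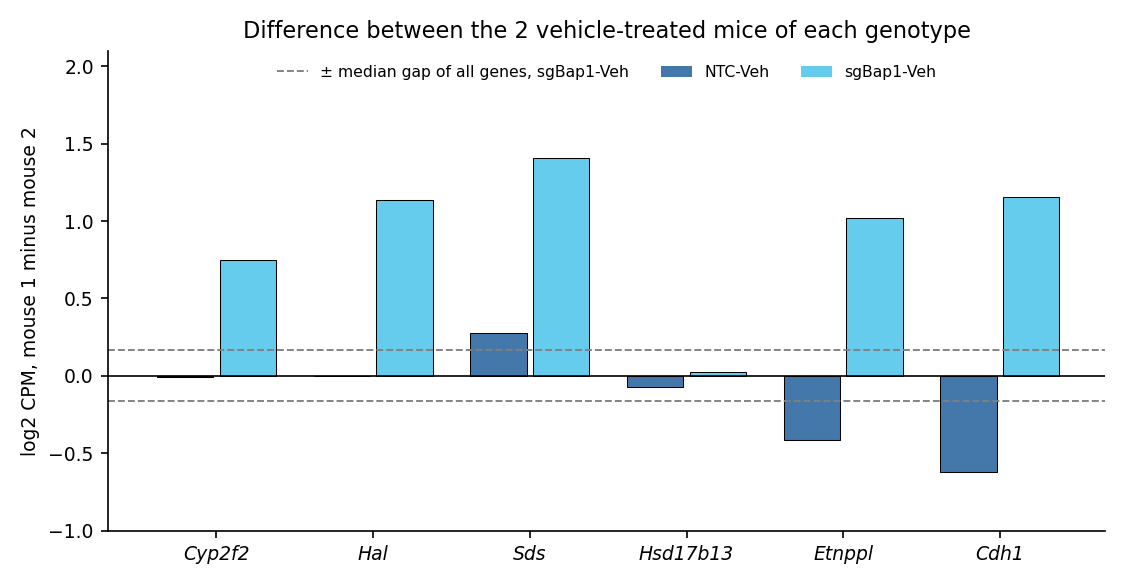
Difference in log2 CPM between the mice numbered 1 and 2 of each vehicle-treated group (vertical axis) for the 6 genes, with dashed lines at plus and minus the median size of the gap over 12028 genes in sgBap1-Veh livers. In sgBap1-Veh livers 5 of the 6 genes differ by 0.75 to 1.41 in the same direction, and Hsd17b13 by 0.02.

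The fourth comparison asks whether the genes ended at different levels after CCl4 in the 2 genotypes. In sgBap1-CCl4 against NTC-CCl4 livers edgeR's quasi-likelihood test called 0 of the 6, where 0.329% of all tested genes were called. At an unadjusted p under 0.05 it was 3 of 6, where 14% of all genes passed. DESeq2's Wald test called 2 of the 6, where it called 3.08% of the genes it tested. The median log2 fold change of the 6 genes was -0.38, against 0.00 over all tested genes.

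Cyp2f2 and Sds had the lowest p-values of the 6 genes, and differed in opposite directions. Cyp2f2 was lower in all 3 sgBap1-CCl4 mice (75.4, 69.4 and 66.4 CPM) than in all 3 NTC-CCl4 mice (121, 102 and 151 CPM), with log2 fold change -0.83 ± 0.19 (SE; unadjusted p = 0.00148, adjusted p = 0.108). Sds was higher in all 3 sgBap1-CCl4 mice (127, 97.7 and 123 CPM) than in all 3 NTC-CCl4 mice (53.4, 55.7 and 61.8 CPM), with log2 fold change 1.03 ± 0.30 (SE; unadjusted p = 0.00862, adjusted p = 0.192). Groups did not overlap for these 2 of the 6 genes, and for 20.3% of all tested genes. DESeq2's Wald test called both, with adjusted p-values of 0.00159 for Cyp2f2 and 0.00882 for Sds. Sds was also called in a model of only these 6 mice (adjusted p = 0.0337) and without either sgBap1-Veh mouse (adjusted p = 0.0293 without mouse 1 and 0.0319 without mouse 2). These vehicle-treated mice enter the test through the shared estimate of the spread. Over all alternatives, including those that left out 1 mouse, the adjusted p was 0.00159 to 0.352 for Cyp2f2 and 0.00882 to 0.530 for Sds.

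Hal did not separate the genotypes after CCl4, with 107, 76.9 and 129 CPM in NTC-CCl4 and 147, 92.0 and 73.1 CPM in sgBap1-CCl4 livers (log2 fold change -0.00, SE 0.34). Hsd17b13 was as close, at 0.02 (SE 0.12). Etnppl had log2 fold change -0.83 ± 0.44 (SE; adjusted p = 0.439), with 1 sgBap1-CCl4 mouse above 2 of the NTC-CCl4 mice. Cdh1 had -0.75 (SE 0.32, adjusted p = 0.353), with 1 sgBap1-CCl4 mouse at 107 CPM just above the lowest NTC-CCl4 mouse at 106 CPM. Within the CCl4-treated groups the estimates of the 6 genes thus ran in both directions between the genotypes, with none called by edgeR's quasi-likelihood test. Whether the genes moved together was not tested.

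The interaction takes the CCl4 effect (log2) seen in sgBap1 livers and subtracts the one seen in NTC livers. EdgeR's quasi-likelihood test called 0 of the 6 genes for it, where 0% of all tested genes were called. At an unadjusted p under 0.05 it was 1 of 6, where 10.4% of all genes passed, and DESeq2's Wald test called 0 of the 6, where it called 2.7% of its genes. The interaction was -0.71 for Cyp2f2 (SE 0.30, unadjusted p = 0.0386, adjusted p = 0.445) and 0.76 for Sds (SE 0.47, adjusted p = 0.648). It was -0.40 for Hal, -0.33 for Hsd17b13, -0.67 for Etnppl and 0.12 for Cdh1, with SEs of 0.19 to 0.68. A deeper fall of Cyp2f2 and a shallower fall of Sds in sgBap1 livers did not pass the test of the difference.

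The order of the 4 group means differed between genes. Cyp2f2 ran from NTC-Veh (655 ± 1.399 CPM, mean ± SD) over sgBap1-Veh (605 ± 216) and NTC-CCl4 (125 ± 24.6) to sgBap1-CCl4 (70.4 ± 4.59). Etnppl had the same order, with 84.4 ± 17.1, 75.7 ± 36.3, 25.4 ± 11.7 and 14.3 ± 6.29 CPM. DESeq2's Wald test called the step of Cyp2f2 from NTC-CCl4 to sgBap1-CCl4 (adjusted p = 0.00159). In both genes, edgeR's quasi-likelihood test called only the step from sgBap1-Veh to NTC-CCl4. For Etnppl this call (adjusted p = 0.0234) was lost with library size alone (0.0745), without the filter on low counts (0.0739), with the replicate number as a block (0.0749) and with only the 2 groups compared (0.0543). It was also lost without sgBap1-Veh mouse 1 (0.195), NTC-CCl4 mouse 1 (0.0674) or NTC-CCl4 mouse 3 (0.0677). Hal ran from sgBap1-Veh (519 ± 275 CPM) over NTC-Veh (393 ± 0.350) and NTC-CCl4 (104 ± 26.3) to sgBap1-CCl4 (104 ± 38.4), again with the step between treatments as the only one called.

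Sds ran from sgBap1-Veh (301 ± 193 CPM) over NTC-Veh (250 ± 33.8) and sgBap1-CCl4 (116 ± 15.9) to NTC-CCl4 (57.0 ± 4.34). The step from NTC-Veh to sgBap1-CCl4 was called (adjusted p = 0.018) with TMM and not with library size alone (adjusted p = 0.127), without the filter on low counts (0.0637), or without NTC-Veh mouse 1 (0.101) or sgBap1-CCl4 mouse 2 (0.0695). Cdh1 ran the other way, from NTC-CCl4 (156 ± 43.0 CPM) over sgBap1-CCl4 (92.8 ± 14.1) and NTC-Veh (35.5 ± 10.6) to sgBap1-Veh (19.4 ± 10.4). Only its step from sgBap1-CCl4 to NTC-Veh, groups that differ in both guide and treatment, was called (adjusted p = 0.0131). That call was lost without NTC-Veh mouse 1. With 1 mouse left out, the log2 fold change of Cdh1 with CCl4 ran from 1.86 to 2.48 in NTC livers. In sgBap1 livers it ran from 1.79 to 2.95. No step in the order of Hsd17b13 was called, from sgBap1-Veh (370 ± 4.52 CPM) over NTC-Veh (291 ± 10.6) and sgBap1-CCl4 (253 ± 35.3) to NTC-CCl4 (250 ± 29.9).

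Relative to the summed general hepatocyte markers, the 4 genes that fell in NTC livers still fell. The log2 ratio to this sum changed with CCl4 by -1.91 for Cyp2f2, -1.63 for Sds, -1.45 for Hal and -1.31 for Etnppl in NTC livers. The sum itself changed by -0.50 on the log2 scale. Most of it was Alb, with a mean of 104551 of 160725 CPM in NTC-Veh livers. Alb is also among the 15 other periportal genes below, so the sum is not independent of the periportal zone. The 8 markers had log2 fold changes of -1.31 to 0.41 with CCl4 in NTC livers. In sgBap1 livers the log2 ratio changed by -2.81 for Cyp2f2, -0.97 for Sds, -2.02 for Hal and -2.16 for Etnppl, and the sum by -0.25. For Hsd17b13 the log2 ratio changed by 0.27 in NTC and -0.31 in sgBap1 livers. These ratios are descriptions, with 2 vehicle-treated and 3 CCl4-treated mice on each side.

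The 15 other periportal genes, which mark the same zone and include Uroc1 of histidine breakdown, mostly fell as well. For the counts in this and the following lists, 27.4% of all tested genes were called higher and 26.6% lower in NTC livers. In sgBap1 livers these shares were 29% and 28%. In NTC livers 14 were lower with CCl4 and 1 was higher, with a median log2 fold change of -1.58. In sgBap1 livers 13 were lower and 0 higher, with a median of -1.67. Asl and Ass1, of the urea cycle, fell by 2.86 and 2.50 on the log2 scale in NTC livers. G6pc, the last step of glucose release, fell by 2.58, and Gls2, which frees ammonia from glutamine, fell by 1.94. Ctsc, a lysosomal protease that immune cells also express, was the 1 gene that rose, by a log2 fold change of 0.98. The summed immune markers rose with it, from 164 to 227 CPM in NTC-Veh to 690 to 887 CPM in NTC-CCl4 livers, and their part in the value of Ctsc was not tested.

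The 14 pericentral genes fell as a list too, with 13 lower and 0 higher in each genotype. Their median log2 fold change was -2.10 in NTC and -2.53 in sgBap1 livers, and single genes fell further than any of the 6. The glutamate transporter gene Slc1a2 had a log2 fold change of -8.77, Cyp2e1 of -5.71, the glutamine synthetase gene Glul of -4.21 and the ammonium transporter gene Rhbg of -3.15 in NTC livers. Of 4 mid-lobule genes, 2 were lower in NTC and 3 in sgBap1 livers, with 0 higher in either. In NTC livers Hamp2, a hepcidin, had -6.58 and Igfbp2, which binds insulin-like growth factors, had -2.30. Hamp, the other hepcidin gene of this list, was not called there, with means of 698 CPM in NTC-Veh and 1090 CPM in NTC-CCl4 livers. Cyp8b1, also of this list, was not called there either, though it was lower in every NTC-CCl4 liver. It measured 211 to 297 CPM in NTC-Veh and 1.67 to 31.1 CPM in NTC-CCl4 livers. Between the genotypes, the lowest adjusted p among the 15 periportal genes was 0.139, of Ass1 after CCl4, and among the 14 pericentral genes 0.096, of Axin2 after CCl4. Of 13 genes that set zonation, such as Wnt ligands, their receptors and the glucagon receptor gene Gcgr, 6 were lower with CCl4 in each genotype. In NTC livers these had Lgr5, a target and amplifier of Wnt signals, at -2.03, Axin2 at -1.73, Gcgr at -1.23 and Rnf43, which removes Wnt receptors, at -1.11, and 0 of the 13 were higher. Lgr5 and Axin2 are also among the 14 pericentral genes, so the lists are not independent. Lgr5 averaged 7.33 CPM in sgBap1-Veh and 5.22 CPM in sgBap1-CCl4 livers. In sgBap1 livers 1 of the 13 was higher, Ctnnb1 at 0.29.

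**Figure D4:**
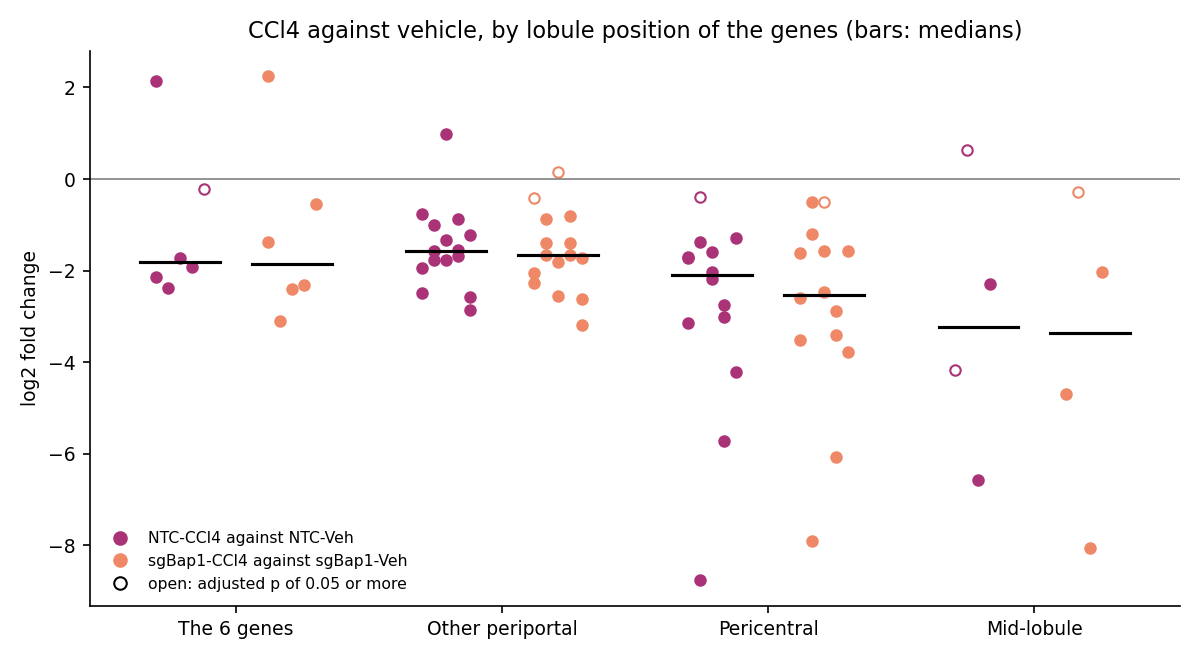
CCl4 effect as a log2 fold change over vehicle (vertical axis) for the 6 genes, 15 other periportal, 14 pericentral and 4 mid-lobule genes, in NTC and sgBap1 livers, with filled points where the adjusted p is under 0.05 and bars at the medians. Cdh1 is the highest point at 2.14 and 2.25, and the lowest pericentral point, Slc1a2 in NTC livers, is at -8.77.

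The other enzymes of histidine breakdown fell together with Hal. Uroc1, which acts right after Hal, had a log2 fold change of -1.22 in NTC and -1.72 in sgBap1 livers. Amdhd1, the next enzyme, had -1.45 and -2.23, and Ftcd, which passes the carbon on to folate, had -1.25 and -1.49. All 3 were lower in both genotypes, with adjusted p-values of at most 0.000178. Amdhd1 is also the neighbour of Hal on chromosome 10. Between the genotypes, their adjusted p-values were at least 0.212 with vehicle and 0.405 with CCl4.

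Of 10 tested genes of serine and threonine use besides Sds, 5 were lower and 3 higher with CCl4 in NTC livers, and 5 lower and 4 higher in sgBap1 livers. Agxt, which turns serine and glyoxylate into hydroxypyruvate and glycine, had a log2 fold change of -2.33 in NTC livers. Shmt1 and Shmt2, which turn serine into glycine, had -1.73 and -1.28, and the serine racemase gene Srr and the threonine-breakdown gene Gcat had -1.08 and -1.07. The 3 genes called higher in both genotypes were those of serine synthesis. Phgdh rose by a log2 fold change of 5.58, Psat1 by 4.92 and Psph by 1.41 in NTC livers, and by 5.65, 4.71 and 1.60 in sgBap1 livers.

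Phgdh, the first enzyme of serine synthesis, went from 0.165 ± 0.0368 CPM in NTC-Veh to 7.99 ± 1.05 CPM in NTC-CCl4 livers. Its NTC-Veh values, 0.139 and 0.191 CPM, lay near the limit of 3 counts (0.0511 to 0.112 CPM), so the size of its rise is uncertain. Phgdh reached 15.8 ± 2.60 CPM in sgBap1-CCl4 livers (n = 3). It was the 1 gene of this list called between the genotypes after CCl4 (log2 fold change 0.98, adjusted p = 0.0347). Over all genes, the calls of this comparison ranged from 1 to 71 with 1 mouse left out, against 56. Whether the call of Phgdh held under the alternatives was not tested. Sdsl, the serine dehydratase-like neighbour of Sds on chromosome 5, had a log2 fold change of 0.12 (adjusted p = 0.61) in NTC and 0.62 (adjusted p = 0.0185) in sgBap1 livers. Gldc, of the glycine cleavage system, was not called in either genotype (0.17 and -0.02), and the threonine dehydrogenase gene Tdh did not pass the filter on low counts.

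Of 8 genes related to Etnppl or to the making and use of phosphoethanolamine and its lipid, 5 were lower and 2 higher with CCl4 in each genotype. Etnk2, an ethanolamine kinase that makes phosphoethanolamine, had a log2 fold change of -2.51 in NTC livers, and Pcyt2, which leads it towards phosphatidylethanolamine, had -1.37. Pemt, which methylates that lipid in the liver, had -0.78, and Phykpl, the relative of Etnppl that acts on phosphohydroxylysine, had -0.67. Selenoi, the last enzyme on this route, had -0.50. Etnk1, the other kinase, rose by a log2 fold change of 0.47, and Sgpl1, which frees phosphoethanolamine from sphingosine phosphate, by 0.48. Pisd, which makes phosphatidylethanolamine in mitochondria, was not called (0.07).

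Hsd17b13 changed by less than 6 of 7 relatives in NTC livers. Of 7 other tested Hsd17b genes, 6 were lower with CCl4 in each genotype, and Hsd17b12, an enzyme of fatty acid elongation, was not called in either. Hsd17b11, the closest relative of Hsd17b13 and its neighbour on chromosome 5, also on lipid droplets, had a log2 fold change of -1.26 (SE 0.15) in NTC and -1.32 (SE 0.15) in sgBap1 livers. It went from 177 ± 0.601 CPM in NTC-Veh to 74.2 ± 0.471 CPM in NTC-CCl4 livers, while Hsd17b13 went from 291 ± 10.6 to 250 ± 29.9 CPM. The other 5 that fell were Hsd17b6 (-1.49), Hsd17b10 (-1.46), Hsd17b7 (-1.09), Hsd17b2 (-0.92) and Hsd17b4 (-0.86), as log2 fold changes in NTC livers. Hsd17b14 did not pass the filter on low counts. The difference between Hsd17b13 and its relatives was not tested.

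Of 5 other genes of the junction that E-cadherin forms, 0 rose with CCl4 in NTC livers and 1 in sgBap1 livers, and 1 fell in each. Cdh2, which encodes N-cadherin, the other classical cadherin of hepatocytes, fell with CCl4 by 0.63 on the log2 scale in NTC livers and by 0.57 in sgBap1 livers. The catenin genes Ctnna1, Ctnnd1 and Jup had log2 fold changes of 0.01 to 0.13 in both genotypes, none called, and Ctnnb1 had 0.20 (adjusted p = 0.0924) in NTC and 0.29 (adjusted p = 0.0236) in sgBap1 livers. Bile duct cells also express Cdh1. Of 7 markers of those cells, 2 rose with CCl4 in each genotype, near the share of all tested genes called higher (27.4% in NTC and 29% in sgBap1 livers). These were Spp1 (log2 fold change 2.27 in NTC livers) and Sox9 (2.20), both of which injured hepatocytes can express as well. The summed level of the 7 was 59.5 to 67.4 CPM in NTC livers with vehicle and 206 to 264 CPM with CCl4. In sgBap1 livers it was 55.1 to 63.0 CPM with vehicle and 285 to 379 CPM with CCl4, and its part in the rise of Cdh1 was not tested. Most of this sum after CCl4 was Spp1 alone, with group means of 199 CPM in NTC and 316 CPM in sgBap1 livers. The defining duct markers Krt19, Krt7 and Epcam had group means of 0.938 to 2.39 CPM in all groups and were not called in either genotype.

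**Figure D5:**
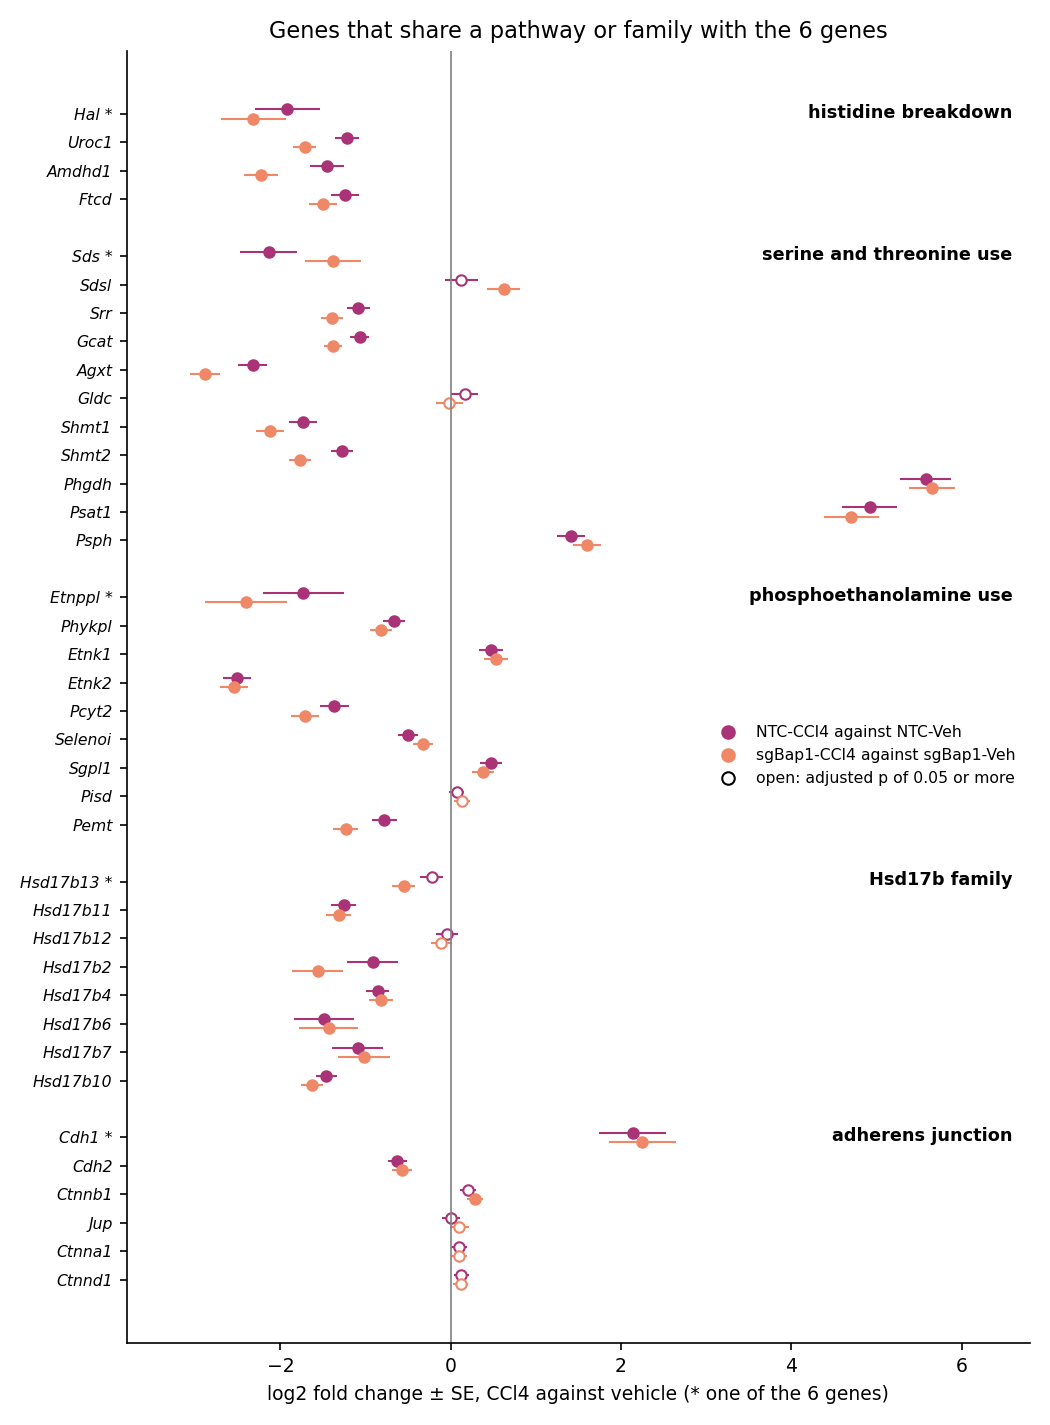
CCl4 effect as a log2 fold change over vehicle, with its SE (horizontal axis), in NTC and sgBap1 livers for the tested genes that share a pathway or family with Hal, Sds, Etnppl, Hsd17b13 and Cdh1, with filled points where the adjusted p is under 0.05. All 4 histidine genes lie left of 0, the serine synthesis genes Phgdh and Psat1 lie furthest right, and Cdh1 stands apart from the other junction genes.

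Cyp2f2 lies in a cluster of Cyp2 genes, 9 others of which were tested. In NTC livers 6 of the 9 were lower with CCl4 and 1 was higher, and in sgBap1 livers 8 were lower and 0 higher. The largest changes in NTC livers were those of Cyp2g1 (log2 fold change -3.52), Cyp2b13 (-3.35), Cyp2a22 (-3.12) and Cyp2a5 (-2.82), so that Cyp2f2 at -2.39 was not the most changed gene of its cluster. The gene that rose was Cyp2a4, with 0.76 in NTC and -0.99 in sgBap1 livers. Genes of this cluster resemble each other in sequence, and reads shared between the Cyp2a or Cyp2b genes could be divided among them by the counting.

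Over the 10 livers, Cyp2f2 and Hal had the closest patterns of the 6 genes (Pearson's r = 0.95 between log2 CPM, given without a test since the groups drive it). Cyp2f2 and Etnppl had 0.92, and Hal with Etnppl and with Sds had 0.88 and 0.87. Cdh1 ran opposite to the other 5, at -0.80 to -0.68. Among 12027 other genes that averaged 100 counts or more, Lin7a, Ndst2 and Parp6 were most like Cyp2f2 (r = 0.99 for each), out of 598 genes with r above 0.95. Most like Hal were Ppp6r1 (0.99), Abcb11 and Ube4a (0.98 each), out of 97 genes. Abcb11, the bile salt export pump, had a log2 fold change of -1.75 in NTC livers. Most like Sds were Rprd1a (0.98), Sik3 and Slc25a38 (0.97 each), and most like Etnppl were Vps13d, Dennd1a and Mmp19 (0.98 each). Hsd17b13 had 1 gene above 0.95, Mtrf1l (0.95), followed by Zfp617 (0.95) and Fbxo7 (0.94). Phlpp2 and Mdc1 (0.99 each) and Ctr9 (0.98) were most like Cdh1. A pattern over these 10 livers mostly follows the step from vehicle to CCl4. The number of genes with r above 0.95 differed widely, with 598 for Cyp2f2, 97 for Hal and 84 for Cdh1. It was 28 for Etnppl, 18 for Sds and 1 for Hsd17b13.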

How the data were processed

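RNA from the right liver lobe was made into stranded, paired-end mRNA libraries. According to the methods and labels, the authors aligned reads with STAR 2.7.6a to GRCm38 and deposited Salmon 1.4.0 estimated counts per gene for GENCODE vM25. The Salmon library type is not given in the sources used here. Gene positions came from GENCODE vM21.

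The estimated counts, 9.22% of them not whole, were rounded. Genes passing edgeR's filterByExpr by group (17015 of 55291) were TMM-normalized and fitted for all 10 mice with edgeR 4.0.16 (R 4.3.3, limma 3.58.1) by the robust quasi-likelihood test. P-values were two-sided and Benjamini-Hochberg adjusted over all tested genes, with a threshold of 0.05. SE was the log2 fold change over the square root of F. The procedure was also run on simulated counts in which only a small share of genes changed, so that run cannot check the assumption of TMM. Log2 CPM used a prior count of 2.

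The members and gene lists were chosen with earlier results of these data known. Besides the 6 genes, the text names genes that share an enzyme step, complex or family with one of them, up to 4 called genes per other list with the largest change in NTC livers, and the 3 genes most alike in pattern. Marker genes beside a result, Cyp2a4, Ctsc and the genes with opposite directions were named after their values were seen.

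Alternatives were DESeq2 1.42.0 (size factors and Wald test), library size alone, other filters, the older edgeR procedure, a replicate block, only the groups compared, and leaving out each mouse.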

Additional observations from a re-analysis of the deposited data

Results flagged for a closer look

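Among the genes of the lists, 4 had groups that did not overlap in a contrast and also not in its counterpart, with opposite directions in the pair. Groups did not overlap for 20.3% to 72.2% of all tested genes in single contrasts. The share of all genes with such opposite directions was not computed. None of the 4 passed the adjusted test of the interaction, computed as the sgBap1 effect of CCl4 minus the NTC effect (log2). Lgr5, a Wnt target of pericentral cells, was lower in sgBap1 than in NTC livers with vehicle and higher with CCl4, with an interaction of 1.54 (adjusted p = 0.13). Cyp2a4, of the cluster that holds Cyp2f2, was higher with CCl4 in NTC livers and lower in sgBap1 livers, with an interaction of -1.75 (adjusted p = 0.0694). Tcf7l2, a factor that carries Wnt signals, was higher in sgBap1 livers with vehicle and lower with CCl4, with an interaction of -0.34 (adjusted p = 0.504). Cd79a, a B cell marker, was higher with CCl4 in NTC livers and lower in sgBap1 livers, with an interaction of -0.91 (adjusted p = 0.477). None of the 6 periportal genes showed such opposite directions.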

How the results depend on the processing

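Of the log2 fold changes of the 6 genes under alternatives other than leaving out a mouse, 226 kept their direction and side of the threshold, 3 reversed, 3 gained a call and 2 lost one. The number of the 6 called in sgBap1-CCl4 against NTC-CCl4 livers was 2 with DESeq2's Wald test and 1 with only the 2 groups compared, against 0, and it ranged from 0 to 1 when 1 mouse was left out. With library size alone, Hsd17b13 in NTC-CCl4 against NTC-Veh livers reversed to 0.25. Hal in sgBap1-CCl4 against NTC-CCl4 livers, at -0.00, reversed to 0.0091 with library size alone and to 0.0072 without the filter on low counts. The cause was not tested. Leaving out 1 mouse gave log2 fold changes in sgBap1-Veh against NTC-Veh livers of -0.54 to 0.21 for Cyp2f2, -0.28 to 0.86 for Hal, -0.61 to 0.81 for Sds and -0.76 to 0.26 for Etnppl. In sgBap1-CCl4 against NTC-CCl4 livers the range was -0.34 to 0.19 for Hal and -0.11 to 0.11 for Hsd17b13. For the interaction it was -0.86 to 0.28 for Hal and -0.34 to 0.82 for Cdh1. The direction of these differences thus depended on single mice.

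With the replicate number as a block, 5, 6, 0, 0 and 0 of the 6 genes were called in the comparisons in the order above, as without it. The correlations of deviations from group means between mice with the same number ran from -0.15 to 0.10, so the numbers were not taken as pairs.

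Over all genes, DESeq2's Wald test called 551 genes in sgBap1-Veh against NTC-Veh livers and 480 in sgBap1-CCl4 against NTC-CCl4 livers, against 69 and 56, and 406 against 0 for the interaction. The 69 became 1 with the replicate block and 0 (without NTC-Veh mouse 2) to 150 (without sgBap1-CCl4 mouse 2) with 1 mouse left out. The 56 became 24 with the block and 1 (without NTC-CCl4 mouse 1) to 71 (without sgBap1-CCl4 mouse 3) with 1 mouse left out, so the background shares of these comparisons are uncertain. With library size alone, 8500 of 10561 calls in NTC livers were higher with CCl4, against 4659 of 9178 with TMM.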
